A study of Mus musculus with 9 samples.

Results

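CD14 and the Toll-like receptor signaling genes studied here are Cd14, Tlr2, Tlr4, Ly96 and Myd88, chosen by name. A probe set was taken for a gene where the platform annotation gave it exactly that symbol as its only one. Of the 5 genes, 2 had such a probe set, Cd14 and Myd88, with 1 each, among 12488 probe sets in all. Both were among the 8695 probe sets that entered the tests. Tlr2, Tlr4 and Ly96 matched no symbol in that annotation and were not analysed here.

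CD14 is a protein of the myeloid cell surface, also found in soluble form, that binds lipopolysaccharide, the outer membrane lipid of gram-negative bacteria. It hands this lipid to the receptor TLR4 and its partner MD-2, which Ly96 encodes, while TLR2 senses bacterial lipoproteins. MYD88 is the adaptor that links most Toll-like receptors, and the receptors of IL-1 and IL-18, to the IRAK kinases and TRAF6, and from there to NF-kB and the MAP kinases. In the spleen, monocytes, macrophages and neutrophils use this pathway to respond to bacterial products with cytokines and chemokines.

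RNA of CD11b+ spleen cells of female mice, 8 to 12 weeks old, was taken after a sort and hybridized to 9 Affymetrix MG-U74Av2 arrays, which measure 1 color on a linear scale. CD11b is the integrin alpha M chain of myeloid cells. The 3 groups of 3 arrays were cells of tumor-free mice, uncultured cells of tumor-bearing mice (fresh), and cells of tumor-bearing mice kept for 24 h in complete medium (cultured). The labels name neither the strain nor the tumor, and they do not say that replicates came from separate mice, so p-values measure the spread between these arrays, which may be technical. No tumor-free cells were cultured.

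Each value is a MAS5 signal, an intensity with no unit. Differences are given as log2 fold changes of signal + 7.83, the 20th percentile of all values, which understates changes of dim genes. A change was called at an adjusted p below 0.05 in limma over all 8695 probe sets. Absolute detection calls of MAS5 were not analysed here, so no signal is called present or absent.

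Each group held a pair of similar arrays and 1 that differed from them. Over the tested probe sets, tumor-free 2 correlated with tumor-free 3 at r = 0.957, fresh 1 with fresh 2 at 0.949, and cultured 1 with cultured 2 at 0.929. Tumor-free 1, fresh 3 and cultured 3 correlated with the other arrays of their group at 0.823 to 0.90. These correlations run across probe sets, which are not independent of each other. The integrin gene Itgam, the target of the sort, had signals of 244 to 954 over the 9 arrays, and its partner Itgb2 of 309 to 1969. Of 7 T and NK cell marker genes with a probe set, only Cd8a lay under 7.83 on every array. The 7 summed to 113 to 331 over the arrays, and 5 B cell marker genes to 148 to 1046.

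Of the 2 measured genes, Myd88 matched the RefSeq table of promoter sequences of GRCm38.p6. Its 250 bases before the start of transcription are shown as the regulatory sequence of the measured adaptor gene, at chr9:119340019-119340268, minus strand, 5′ to 3′. Capitals mark the 1 match to any of 4 motifs searched on both strands.
Myd88: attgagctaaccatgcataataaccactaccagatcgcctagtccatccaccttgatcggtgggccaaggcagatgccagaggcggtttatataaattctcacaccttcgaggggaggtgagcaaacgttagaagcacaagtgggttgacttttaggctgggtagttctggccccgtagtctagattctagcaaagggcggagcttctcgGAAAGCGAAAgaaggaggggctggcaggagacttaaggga
The match is to GAAA, 2 bases of any kind and GAAA, the form of element that interferon regulatory factors bind, and lies 31 to 40 bases before the start. The motif was chosen with the sequence in view. It occurs in 2.98% of 32851 promoter windows of the same length. The AP-1 motif TGANTCA, the PU.1 core GAGGAAG and the kappaB consensus of NF-kB had no match in this window, and occur in 6.75%, 10.6% and 3.9% of windows. A match describes the letters and is not evidence of binding.

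Cd14, the lipopolysaccharide co-receptor gene, was bright on all fresh arrays and split in both other groups. In tumor-free cells its signals were 7644, 2005 and 1287 on arrays 1, 2 and 3 (3645 ± 3482, mean ± SD, n = 3). In fresh tumor-bearing cells they were 7779, 7766 and 8194 (7913 ± 243, n = 3). In cultured cells they were 7946, 7558 and 2891 (6132 ± 2813, n = 3). Fresh arrays lay above all tumor-free arrays, but tumor-free 1 came close to them and far above tumor-free 2 and 3. Cultured 3 lay below all other tumor-bearing arrays and above tumor-free 2 and 3. The order of the group means was fresh, cultured, tumor-free, and no pair of groups differed past the threshold.

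**Figure D1:**
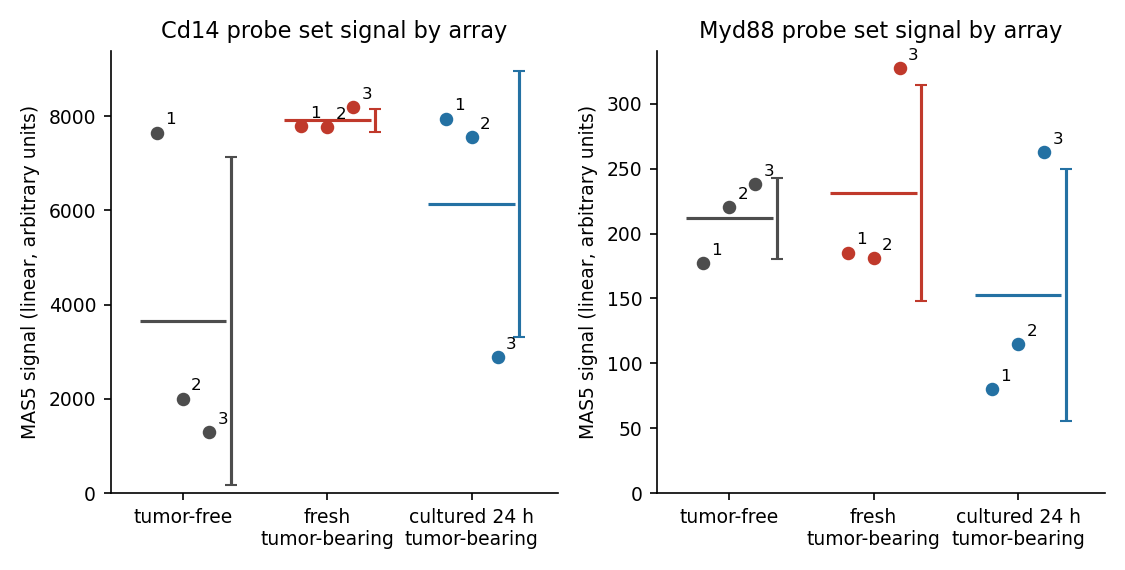
MAS5 signal (linear axis, arbitrary units) of the Cd14 and Myd88 probe sets on each of the 9 arrays, with replicate numbers beside the points, the mean as a line and the SD (n = 3) as a bar. The 3 fresh arrays sit between 7766 and 8194 for Cd14, whereas tumor-free arrays run from 1287 to 7644, and the Myd88 signals of all groups overlap.

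The first comparison sets fresh tumor-bearing against tumor-free cells. Cd14 had a mean signal 2.17-fold higher in fresh cells, with a log2 fold change of 1.55 ± 0.60 (SE; 95% interval 0.22 to 2.88). The unadjusted p was 0.0267, and limma's adjusted p was 0.230, so Cd14 was not called. Neither of the 2 genes was called, beside 1.9% of all tested probe sets. At an unadjusted p below 0.05 stood 16.7% of them. Of the 2 genes, 1 had groups that did not overlap, Cd14 with fresh cells higher, beside 9.34% of tested probe sets in that direction and 22.4% in either. Of all tested probe sets, 3.94% had a larger change in size than Cd14.

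The Cd14 result turned on tumor-free 1. Without that array the log2 fold change was 2.29 and limma's adjusted p 0.0107, and over the 9 arrays left out in turn the adjusted p ran up to 0.536. Without tumor-free 3 the log2 fold change was 1.01 (adjusted p = 0.519). Without tumor-free 1, fresh 3 and cultured 3 together it was 2.27 (adjusted p = 0.000325), with 2 arrays a group chosen for their likeness. With the closest pair of each group averaged to 1 value it was 1.18 (adjusted p = 0.872). Tumor-free 1 had the lowest summed signal of its group in each of 8 lists of cell type marker genes. For 9 macrophage genes the sum was 3816 against 12699 and 13844, and for 12 neutrophil genes 33439 against 42941 and 48354. On tumor-free 1 the ratio of 3' to 5' beta-actin signal, which rises as RNA is shortened, was 2.57, the highest of the 9 arrays. On tumor-free 2 and 3 it was 0.99 and 1.19. The mean log2 signal of bacterial spike-in probe sets was 10.36 on tumor-free 1, against 9.77 and 9.65. The part of these differences in the Cd14 signal was not tested.

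Macrophage and pancreas marker genes moved with this comparison. In bulk RNA, fewer cells of a type and less RNA per cell cannot be told apart. Of 10 macrophage genes, 9 had a probe set. Their summed signal was 3816 to 13844 in tumor-free, 1652 to 2070 in fresh and 2980 to 3874 in cultured cells. All 9 were lower in fresh than in tumor-free cells, and 5 of 9 were called, beside 1.9% of all tested probe sets. The sum of 12 of 12 neutrophil genes was 33439 to 48354, 48829 to 60888 and 15903 to 44258. In fresh against tumor-free cells 10 of the 12 were higher and 2 lower, with a median log2 fold change of 1.55. Of them 1 was called, lower, and 5 had an unadjusted p below 0.05 in limma. That of 4 of 7 monocyte genes was 1620.0 to 3654, 1149 to 1749 and 1224 to 3640, with none of 4 called by limma and 1 at an unadjusted p below 0.05. Pancreas acinar genes (5 of 8) summed to 419 to 685 in tumor-free, 5411 to 9405 in fresh and 436 to 785 in cultured cells. All 5 were higher in fresh than in tumor-free cells, and 4 of 5 were called. Erythroid genes (4 of 6) summed to 437 to 2117, 4543 to 6152 and 622 to 6860.1. All 3 tested erythroid genes were higher in fresh than in tumor-free cells with no overlap, beside 9.34% of tested probe sets in that direction. None was called by limma, and 2 had an unadjusted p below 0.05. In these 5 lists, no gene lay under 7.83 on all arrays of a group. Their part in the Cd14 signal was not tested.

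Myd88, the shared adaptor gene, overlapped between all groups. Its signals were 177, 220.4 and 238 in tumor-free cells (212 ± 31.3, n = 3), 185, 181 and 327 in fresh cells (231 ± 83.3, n = 3) and 80.4, 115 and 263 in cultured cells (153 ± 96.8, n = 3). Fresh 3 and cultured 3 were the highest arrays of their groups, and cultured 1 and 2 lay below every other array. The group means followed the order fresh, tumor-free, cultured, with no difference between them past the threshold. Fresh cells differed from tumor-free cells by 0.077 ± 0.40 (95% interval -0.80 to 0.96, limma adjusted p = 0.938). The sign turned without tumor-free 1 (-0.041) and without fresh 3 (-0.19).

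The second comparison sets cells of tumor-bearing mice after 24 h of culture against fresh ones. It shares the fresh arrays with the first. Cd14 had a log2 fold change of -0.50 ± 0.60 in cultured against fresh cells (95% interval -1.83 to 0.83, limma adjusted p = 0.759), which was -0.030 without cultured 3. Myd88 had one of -0.69 ± 0.40 (95% interval -1.56 to 0.19, adjusted p = 0.442). Without cultured 3 it was -1.14 (adjusted p = 0.0792), without fresh 3 -0.41 (adjusted p = 0.634) and without cultured 1 -0.34 (adjusted p = 0.789). Without the 3 arrays that stand apart it was -0.87 (limma adjusted p = 0.0296). The arrays kept in that fit were chosen for their likeness, which narrows the spread, so its p-value is not read as a call. With all arrays neither gene was called, beside 2.69% of tested probe sets. The groups overlapped for both genes, and did not overlap for 22.2% of tested probe sets. All 12 neutrophil marker genes were lower in cultured than in fresh cells (median log2 fold change -1.46), and 1 was called. All 5 pancreas acinar genes were lower, and 4 were called. Of 9 macrophage genes 3 were higher and 6 lower, with 1 called each way. The part of cell content in the changes of this comparison was not tested.

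The third comparison sets cultured tumor-bearing against uncultured tumor-free cells, where tumor and culture cannot be told apart. Cd14 had a log2 fold change of 1.04 ± 0.60 (95% interval -0.29 to 2.37, limma adjusted p = 0.485). Without tumor-free 1 it was 1.79 (adjusted p = 0.0377), and without the 3 arrays that stand apart 2.26 (adjusted p = 0.000266). It was 0.51 without tumor-free 3 (adjusted p = 0.837), 0.64 with a block for arrays of high or low spike-in signal (adjusted p = 0.556) and 0.43 with the closest pair averaged (adjusted p = 0.999). Myd88 had one of -0.61 ± 0.40 (95% interval -1.49 to 0.27, adjusted p = 0.539), and -1.19 without those 3 arrays (adjusted p = 0.00665). It was -0.26 without cultured 1 (adjusted p = 0.903), -0.33 with the same block (adjusted p = 0.633) and -0.32 with the closest pair averaged (adjusted p = 0.999). The arrays kept without those 3 were chosen for their likeness, which narrows the spread. The p-values of that fit are not read as calls. Neither gene was called with all arrays, beside 1.23% of tested probe sets. The groups overlapped for both, and did not overlap for 18.5% of tested probe sets.

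**Figure D2:**
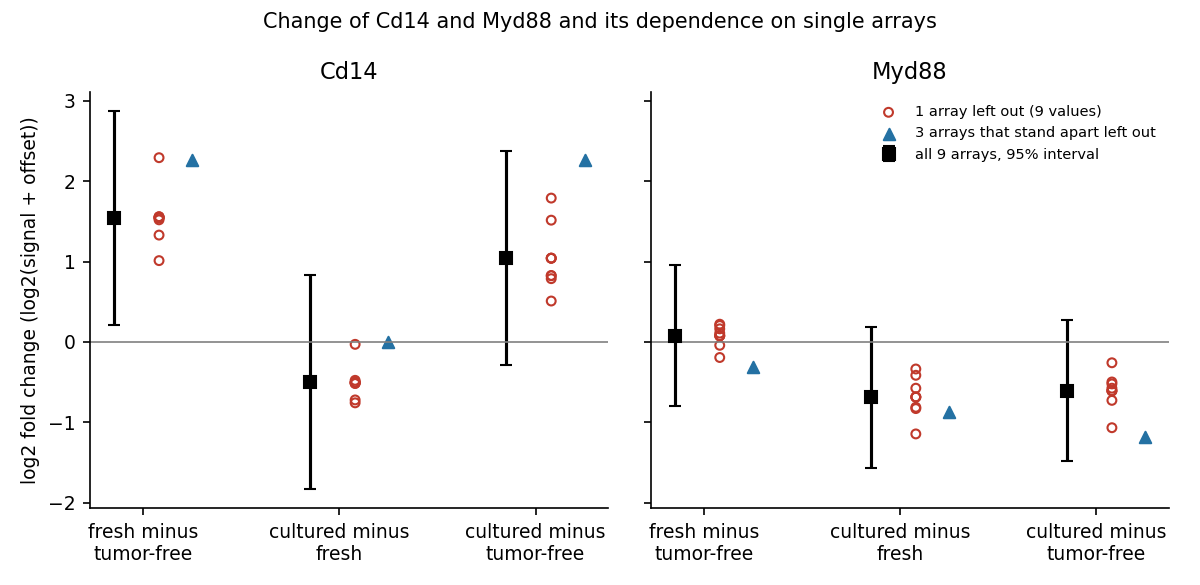
Log2 fold change of Cd14 and Myd88 in the 3 comparisons. Squares with bars are the fit to all 9 arrays with its 95% interval, open circles leave out 1 array each, and triangles leave out tumor-free 1, fresh 3 and cultured 3 together. Cd14 in fresh against tumor-free cells runs from 1.01 to 2.29 as single arrays are left out, and Myd88 in the same comparison from -0.19 to 0.22.

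Signals of both genes were set against 2 technical measures of the arrays. The permutation tests treat all arrays as exchangeable, and take no account of the groups or of the similar pairs in them. Their p-values can thus be too small. The mean log2 signal of 9 bacterial spike-in probe sets, which are not RNA of the cells but share the scaling of the array, ran from 8.99 on fresh 3 to 10.50 on cultured 1. Myd88 was lower where this signal was higher, with Pearson r = -0.90 (exact permutation test over 9 arrays, two-sided p = 1.1e-05, adjusted p = 4.41e-05) and Spearman rho = -0.98 (exact permutation p = 4.96e-05, adjusted p = 0.000198). It was -0.90 without the 2 arrays farthest from the median spike-in signal. With group means removed, r was -0.95. Of the tested probe sets 0.311% had an r this low or lower. For Cd14 and the spike-in signal r was 0.35 and rho 0.20 (exact permutation p = 0.360 and 0.613, adjusted p = 0.360 and 0.613), and 30.2% of tested probe sets had an r this high or higher. That r was 0.64 without the same 2 arrays, and 0.71 with group means removed.

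The other measure was the ratio of 3' to 5' beta-actin signal, which rises as RNA is shortened. Its log2 value went with Cd14 at r = 0.73 and rho = 0.45 (exact permutation p = 0.0174 and 0.230, adjusted p = 0.0347 and 0.306), so that only Pearson's r passed. It was 0.65 without the 2 farthest arrays and 0.92 with group means removed, and 4.67% of tested probe sets had an r this high or higher. With Myd88 it gave r = -0.73 and rho = -0.77 (exact permutation p = 0.0270 and 0.0214, adjusted p = 0.0360 and 0.0428). It was -0.91 without them and -0.71 with group means removed, and 4.39% of tested probe sets had an r this low or lower. These 4 relations were chosen after values had been seen, and p-values are adjusted over the 4, which does not cover that choice. The spike-in signal was also split at its median into a high class (tumor-free 1, fresh 1 and 2, cultured 1 and 2) and a low class. With the class as a block in limma, Cd14 in fresh against tumor-free cells was 1.15 (adjusted p = 0.204), and within the high and the low class it was 0.024 and 2.34. The high class holds only 1 tumor-free array, and the low class 1 fresh array. Whether the array measures set these signals was not tested.

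**Figure D3:**
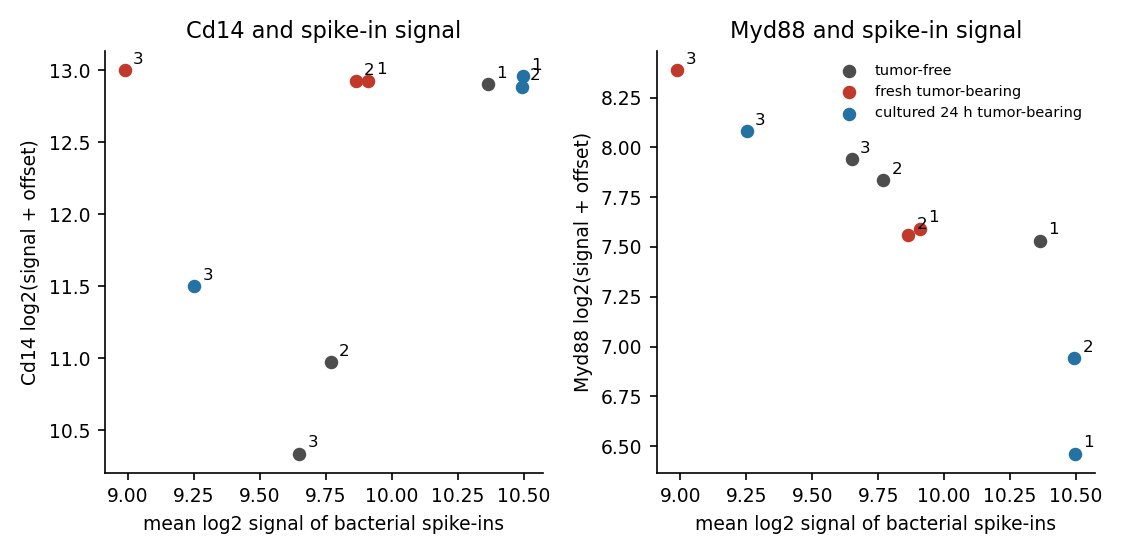
Log2(signal + offset) of Cd14 and Myd88 against the mean log2 signal of the bacterial spike-ins on each array, colored by group and numbered by replicate. Myd88 runs from 8.39 on fresh 3, where the spike-in signal is 8.99, to 6.46 on cultured 1, where it is 10.50, while Cd14 gives r = 0.35 over all arrays and 0.71 with group means removed.

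Cd14 and Myd88 themselves ran apart, with r = -0.41 over the 9 arrays. The genes most like Cd14 over these arrays were Lsr, a lipoprotein receptor gene (r = 0.99), Ndrg1, a stress-responsive gene (0.97), and Cdkn1a, which encodes the cell cycle inhibitor p21 (0.97). Their signals split the tumor-free arrays as well, Cdkn1a from 87.3 to 1990.4 and Ndrg1 from 163 to 804. Those most like Myd88 were Tfdp1, the partner of E2F factors (0.96), Api5, an inhibitor of apoptosis (0.96), and BC005624 (0.96). All points share their arrays and scaling. Of 7699 probe sets with 1 symbol, 39 had an r above 0.9 with Cd14 and 36 with Myd88.

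The wider pathway was described by 8 lists of genes, grouped by role, with 113 genes of which 82 were tested. In fresh against tumor-free cells 7 of 82 were called, 4 higher and 3 lower, which is 8.54% beside 1.9% of all tested probe sets. In cultured against fresh cells 6 were called, 2 higher and 4 lower (7.32% beside 2.69%), and in cultured against tumor-free cells 3, 1 higher and 2 lower (3.66% beside 1.23%). At an unadjusted p below 0.05 stood 29, 32 and 19 of the 82, beside 16.7%, 16.3% and 14.1% of all tested probe sets. These counts rest on few arrays: leaving out 1 array at a time gave 1 to 23, 2 to 19 and 2 to 17 called. The highest count of each range was reached without tumor-free 1. In the first comparison 1 or 2 were called without fresh 1, tumor-free 2, fresh 2 or tumor-free 3, and in the second 2 or 3 without any fresh array or cultured 2. Without the 3 arrays that stand apart, which leaves pairs chosen for likeness, the counts were 41, 28 and 32. The lists were written with earlier results of these arrays known, so these shares are a description.

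**Figure D4:**
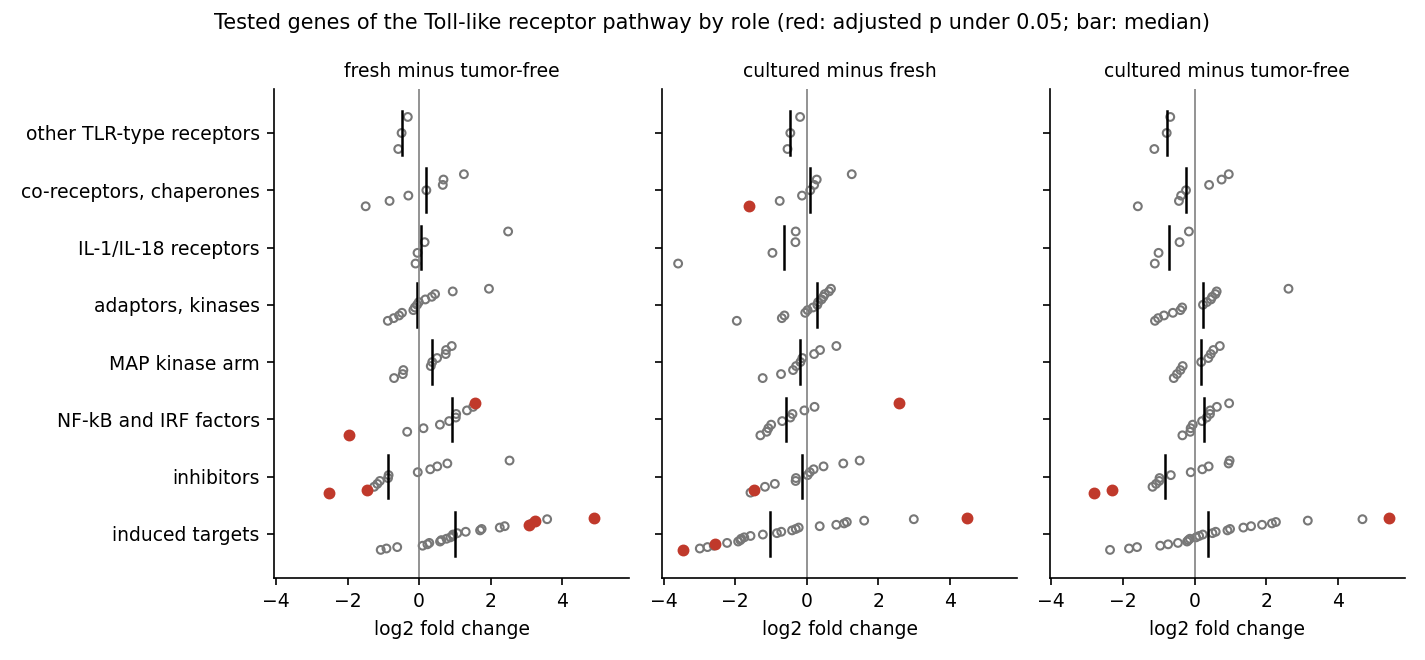
Log2 fold change of each tested gene of the 8 pathway lists in the 3 comparisons, 1 point a gene, red where limma's adjusted p is below 0.05, with the list median as a bar. Induced targets, and NF-kB and IRF factors, lie mostly above 0 in fresh against tumor-free cells (medians 1.01 and 0.93). In cultured against fresh cells they lie mostly below 0 (medians -1.03 and -0.58).

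Among other receptors of the family, Tlr6, Tlr7 and Cd180 were tested, 3 of 11 listed. Tlr7, a sensor of single-stranded RNA, had signals of 59.1, 78.5 and 92.6 in tumor-free cells. Its signals were 53.1, 42.8 and 48.1 in fresh and 44.5, 20.8 and 29.7 in cultured cells. Every fresh and cultured array lay below the tumor-free arrays, as did fresh or cultured arrays for 13.1% and 8.2% of tested probe sets. None of the 3 was called by limma in any comparison, with 0, 0 and 2 at an unadjusted p below 0.05. The log2 fold change of Tlr7 in cultured against tumor-free cells was -1.12 ± 0.30 (adjusted p = 0.113). Tlr6, which pairs with TLR2, was at -0.78 (adjusted p = 0.306), and Cd180, a homolog of TLR4 that pairs with MD-1, at -0.68.

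Of the co-receptors and chaperones 7 of 10 were tested. In cultured against fresh cells 1 was called (14.3% beside 2.69% of all tested probe sets), and none in the other comparisons. Lbp, which encodes the plasma protein that loads lipopolysaccharide onto CD14, had mean signals of 155 ± 39.2 in tumor-free, 372 ± 26.0 in fresh and 128 ± 68.2 in cultured cells (SD, n = 3). All fresh arrays lay above those of both other groups. Groups did not overlap, in either direction, for 22.4% of tested probe sets in the first comparison and 22.2% in the second. In cultured against fresh cells Lbp fell by 1.63 ± 0.37 on the log2 scale (limma adjusted p = 0.0461), but the call held only without tumor-free 1 or without cultured 3, and was lost without each of the 7 other arrays. Its log2 fold change of 1.25 in fresh against tumor-free cells was not called (adjusted p = 0.122). Unc93b1, which carries endosomal receptors to their place, was at -1.49 in fresh against tumor-free cells (adjusted p = 0.160), and Ly86, which encodes MD-1, at -0.83.

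None of the 4 tested IL-1 and IL-18 receptor genes, of 7 listed, was called by limma (1, 1 and 0 at an unadjusted p below 0.05). Il1r2, the decoy receptor that takes up IL-1, repeated the split of Cd14 in tumor-free cells, with 5866, 148 and 142 on arrays 1, 2 and 3. Fresh signals were 2902, 2442 and 3358, and cultured ones 211, 179.5 and 324. The cultured arrays lay below all fresh arrays, with a log2 fold change of -3.59 ± 1.10 (adjusted p = 0.119). In that comparison groups did not overlap, in either direction, for 22.2% of tested probe sets.

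Among 13 tested adaptors and kinases, of 21 listed, none was called by limma (1, 2 and 2 at an unadjusted p below 0.05), with medians of -0.06, 0.29 and 0.24 beside 0.01, 0.02 and 0.05 over all tested probe sets. Ikbke, a kinase of interferon regulatory factors, was at 1.95 in fresh and 2.62 in cultured against tumor-free cells (adjusted p = 0.189 and 0.105). Tirap, which docks MYD88 to TLR2 and TLR4, was at -0.70 in cultured against fresh cells (adjusted p = 0.423). Of the MAP kinase arm 9 of 12 were tested and none called (2, 3 and 0 at an unadjusted p below 0.05). Map2k3, which activates p38, was at -1.23 in cultured against fresh cells, just outside the threshold (adjusted p = 0.0505).

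The transcription factors and their inhibitors held the next calls, with 10 of 11 tested. In fresh against tumor-free cells 2 were called (20% beside 1.9% of all tested probe sets). In cultured against fresh cells 1 was called (10% beside 2.69%). Nfkb2, a subunit of NF-kB, rose in fresh against tumor-free cells by 1.55 ± 0.30, from signals of 158, 153 and 124 to 382, 328 and 671 (limma adjusted p = 0.0261, and 0.0580 after median centring). Irf7, the interferon regulatory factor that MYD88 engages in dendritic cells, fell by 1.95 ± 0.39, from 261, 345 and 273 to 63.8, 62.6 and 84.7 (adjusted p = 0.0304, and 0.0579 after median centring). In cultured cells Irf7 was at 286, 345 and 933, and rose against fresh cells by 2.57 ± 0.39 (adjusted p = 0.00706). A further Irf7 probe set gave -0.33 and 0.92 in the same comparisons. Against tumor-free cells no factor was called by limma in cultured cells, with 1 at an unadjusted p below 0.05. Nfkbia, the inhibitor that NF-kB induces, was at 5749, 1072 and 769.8 in tumor-free and 4833, 4788 and 4773 in fresh cells, a difference of 1.51 ± 0.60 that was not called (adjusted p = 0.235).

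Of 12 tested inhibitors of the pathway, of 16 listed, 8 were lower and 4 higher in fresh than in tumor-free cells. Of them 2 were called, both lower, which is 16.7% beside 1.9% of all tested probe sets. Zfp36, which destabilizes cytokine mRNAs, went from 4739, 3547 and 3222 to 601, 478 and 1003 (-2.50 ± 0.48, limma adjusted p = 0.0252), and Atf3, a repressor of inflammatory genes, from a mean of 1367 to 497 (-1.45 ± 0.29, adjusted p = 0.0287). Dusp1, a phosphatase of MAP kinases, fell in cultured against fresh cells, from 2558, 2664 and 2696 to 1342, 1049 and 612 (-1.46 ± 0.31, adjusted p = 0.0293). Against tumor-free cells, at 5167, 4921 and 4271, it fell by 2.32 ± 0.31 (adjusted p = 0.00657), and Zfp36 fell by 2.82 ± 0.48 (adjusted p = 0.0182). Tnfaip3, which removes ubiquitin chains from signaling proteins, lay the other way, at 2.52 in fresh against tumor-free cells, and was not called (adjusted p = 0.124).

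Of 24 tested targets that Toll-like receptor signaling induces in myeloid cells, 21 were higher and 3 lower in fresh than in tumor-free cells. This list too was written with earlier results of these arrays known, so the split is a description. The called ones were 3 (12.5% beside 1.9% of all tested probe sets), all higher: Il1a, Cxcl1 and Il10. Il10, an anti-inflammatory cytokine gene, went from 3.50, 19.6 and 3.10 to 111, 107 and 137 (3.06 ± 0.53, limma adjusted p = 0.0150). Cxcl1, a neutrophil-attracting chemokine gene, went from 774, 167 and 93.6 to 2478, 2327 and 2016 (3.24 ± 0.58, adjusted p = 0.0178), and Il1a changed by 4.87 ± 0.63 (adjusted p = 0.00274). In cultured against fresh cells Cxcl1 fell by 3.45 ± 0.58 (adjusted p = 0.0115) and Il10 by 2.56 ± 0.53 (adjusted p = 0.0272). Il12a, which encodes the p35 chain of IL-12, rose by 4.47 ± 0.45, from 5.30, 10.5 and 35.0 to 748, 396 and 362 (adjusted p = 0.000759). It also rose against tumor-free cells, by 5.42 ± 0.45 (adjusted p = 0.00112), the only target called there. Several of the low Il10 and Il12a signals lie near the offset of 7.83, so the sizes of their changes depend on it.

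**Figure D5:**
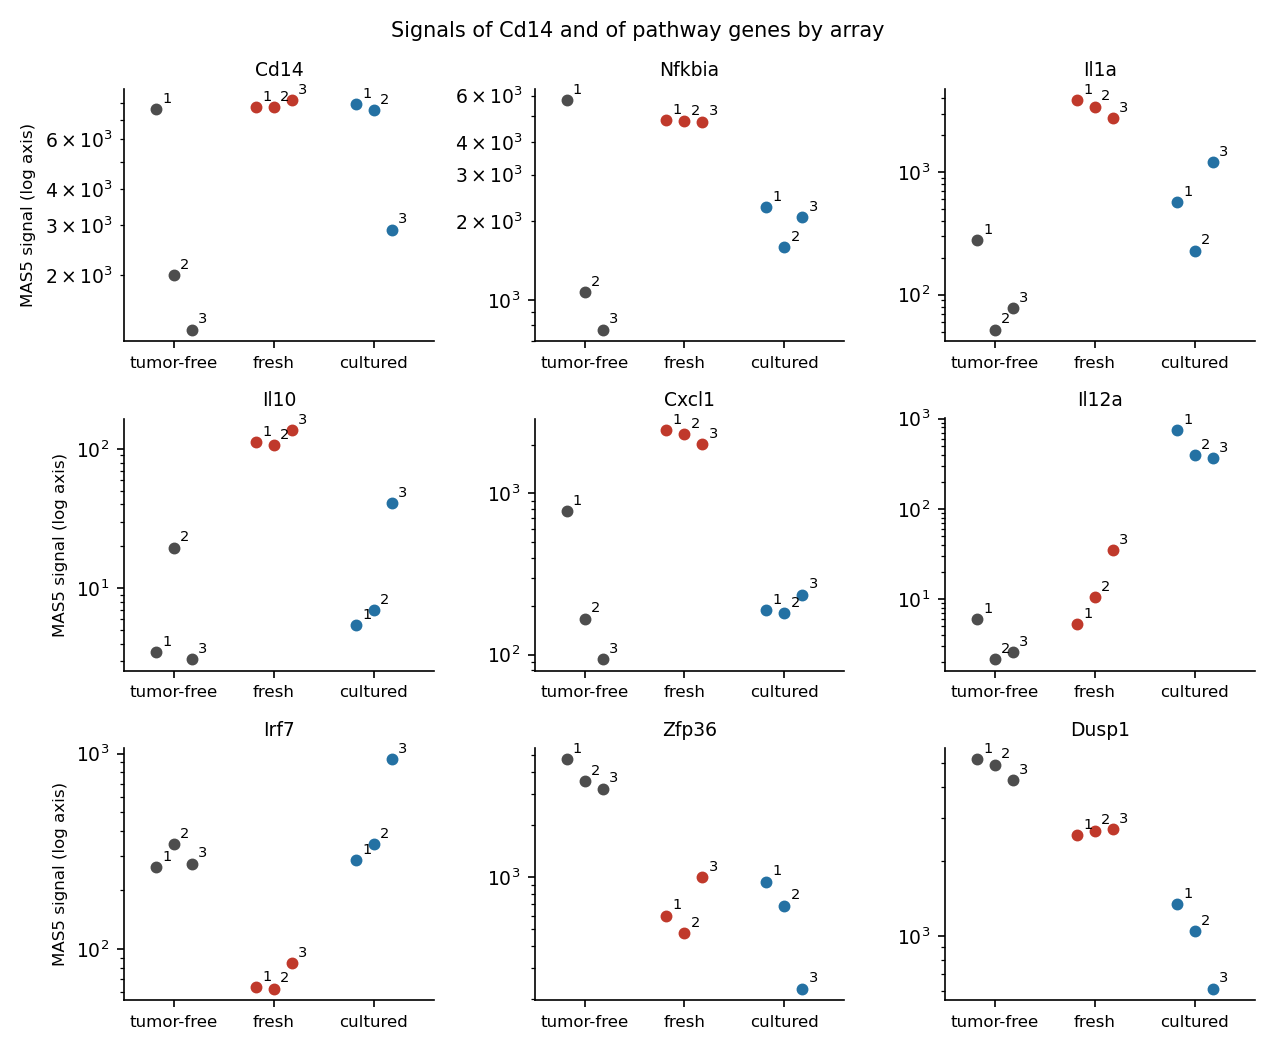
MAS5 signal (log axis) of Cd14, of 7 pathway genes called in at least 1 comparison, and of Nfkbia, which was not called, on each array with its replicate number. Tumor-free 1 lies near the fresh arrays for Cd14 (7644) and Nfkbia (5749), whereas for Il1a and Il10 all tumor-free arrays lie below all fresh arrays. Fresh arrays lay above all tumor-free arrays for 9.34% of tested probe sets.

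Of the 16 calls among pathway genes, 5 held whichever 1 of the 9 arrays was left out: Il1a in fresh cells, Irf7 and Il12a in cultured against fresh cells, and Dusp1 and Il12a in cultured against tumor-free cells. The other 11 were each lost in at least 1 case, with adjusted p up to 0.161. The arrays whose absence ended a call were, for fresh against tumor-free cells, all but tumor-free 1 and the cultured arrays for Irf7 and Atf3. For Zfp36 and Cxcl1 they were tumor-free 2, fresh 1, tumor-free 3 or fresh 2, for Nfkb2 fresh 1 or either of tumor-free 2 and 3, and for Il10 fresh 1, fresh 2 or tumor-free 3. For cultured against fresh cells they were any fresh array, cultured 2 or either of tumor-free 2 and 3 for Dusp1, any fresh array and cultured 1 or 2 for Il10, and cultured 2, fresh 2 or fresh 1 for Cxcl1. Zfp36 in cultured against tumor-free cells needed cultured 2 and both of tumor-free 2 and 3. With the closest pair of each group averaged to 1 value, Il12a in cultured against fresh cells was the single call of the 16 that remained.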

How the data were processed

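The authors deposited 1 MAS5 signal per probe set and array, an intensity on a linear scale, per the submitters' processing notes; the sources used here do not give its version, settings or genome build. The 2% trimmed mean of each array was 100.06 to 100.08, which shows a scaling to 1 level, and the signals were used as deposited. Signals were taken as log2(signal + 7.83). The 66 control probe sets and the 30% of the rest with the lowest mean were left out. A model with 1 mean per group was fitted to the 9 arrays in limma 3.58.1 (R 4.3.3), with an intensity trend and 6 residual degrees of freedom. Tests were two-sided, with Benjamini-Hochberg adjustment over 8695 probe sets. The code was run on simulated data with independent noise for each probe set and array. Such data hold no array that stands apart, so that run does not cover the effect of such arrays here. The moderated fit gave the standard errors, intervals are not adjusted, and precision is limited by the number of arrays.

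The annotation gave 1 symbol for 10855 probe sets, several for 396 and did not list 1237; 10839 were matched by gene ID to RefSeq symbols of GRCm38.p6. Where a listed gene had several probe sets, the one brightest on average was taken. Named genes are Cd14 and Myd88, the called genes of each list, up to 3 with the largest change where fewer were called, and the 3 genes most like each of Cd14 and Myd88. The genes and lists were chosen with earlier results of these data known. Spike-in classes were split at the median of the spike-in signal. Alternatives covered scaling, offset, filter, variance trend, groups in the fit, blocks and arrays left out.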

Additional observations from a re-analysis of the deposited data

How the results depend on the processing

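Cd14 and Myd88 kept their direction and their side of the threshold under quantile normalization, median centring, offsets at the 5th and 40th percentile, no filter or the lowest 50% left out, no intensity trend, fits of only the 2 groups compared, the closest pair averaged, and the spike-in block. Leaving out 1 array gave Cd14 values of 1.01 to 2.29, -0.76 to -0.03 and 0.51 to 1.79, and Myd88 values of -0.19 to 0.22, -1.14 to -0.34 and -1.07 to -0.26, in the order of the comparisons. Without the 3 arrays that stand apart Cd14 was 2.27, -0.0042 and 2.26, and Myd88 -0.31, -0.87 and -1.19. Within the high spike-in class Cd14 was 0.024 in the first and 0.020 in the third comparison, and within the low class -1.50 in the second, and Myd88 was 0.19 in the third comparison within it.

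Counts of called probe sets were 165, 234 and 107. Leaving out 1 array gave 63 to 623, 74 to 489 and 24 to 529. They were 2147, 1374 and 1810 without the 3 arrays, 277, 556 and 177 with the spike-in block, and 23, 21 and 0 with the closest pair averaged (475 at an unadjusted p below 0.05 in limma for the last). The last was 14 with only its 2 groups in the fit. The cause was not tested; the fit without 3 arrays holds pairs chosen for likeness.

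The replicate block gave 200, 258 and 144 and no other call for Cd14 or Myd88 (1.55 in the first comparison). Deviations of same-numbered arrays correlated at -0.20 to 0.26, 5 of 9 above 0.1, and 4 of 9 arrays correlated best with their own number. Not every pair was above 0.1, so the numbers were not taken to pair the arrays; the labels do not say whether same-numbered arrays share a source.

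Named genes that were not called turned sign in places: in the first comparison Il1r1 was -0.21 with the closest pair averaged and -0.15 with the spike-in block, and leaving out 1 array gave Il1r1 -0.49 to 0.86, Tlr6 -0.50 to 0.0011, Il18r1 -0.59 to 0.27 and Map3k8 -0.094 to 1.52. In the second comparison Cd180 ran from -0.39 to 0.053 and Il18r1 from -0.64 to 0.17 (0.057 without the 3 arrays), and in the third comparison Il1r2 from -2.0 to 0.64 (0.41) and Relb from -0.51 to 1.02 (-0.72). Signals near the offset of 7.83 limit what can be said of dim genes.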

Other observations

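Of 24 tested targets of Toll-like receptor signaling, 5 had an r above 0.7 with Cd14 over the 9 arrays and 5 a negative one, with a median of 0.44 and a lowest value of -0.54 for Cd40, a co-stimulatory receptor gene. The genes named next had the highest or lowest values and were picked out after those had been seen. Saa3, which encodes an acute phase protein, had signals of 4875, 237 and 353 in tumor-free, 10067, 10391 and 6950.3 in fresh and 7881, 8320.3 and 4701 in cultured cells. Over the 9 arrays it followed Cd14 at r = 0.90 and was not called in any comparison (limma adjusted p = 0.0712, 0.881 and 0.126). Il1rn, which encodes the IL-1 receptor antagonist, followed Cd14 at r = 0.87. Of the list of NF-kB and IRF factors, Nfkbib followed Cd14 at 0.90 and Nfkbia at 0.82. Mapk14, which encodes the p38 kinase, ran opposite to Cd14, at r = -0.93.

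Ccl5, a T cell-attracting chemokine gene, stood at 2387, 5020 and 804 in cultured cells, against 5.57, 193 and 205 in tumor-free cells. Its log2 fold change of 4.69 ± 0.99 missed the threshold (limma adjusted p = 0.0502).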
